A study of Rattus norvegicus with 12 samples.

Results

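Heat shock proteins and their J-domain co-chaperones were followed in rat hepatic progenitor cells (HPCs), precursors from which both hepatocytes and the lining of bile ducts form. Members were chosen by symbol: the HSP70, HSP90, HSP110, small heat shock and mitochondrial chaperonin families, the DNAJA, DNAJB and DNAJC families, the heat shock factor gene Hsf1 and Bag3. The main chaperones of the endoplasmic reticulum that match these names (5 lines) were left out by the rule. Of 72 candidate lines in the table, 61 averaged 1 FPKM or more across the 12 libraries and were kept, among 11860 lines of the whole table that passed the same filter. They carry 60 symbols, because Hspa8 stands on 2 lines. The 11 lines under the filter include Dnajb8, Dnajc5g and Hspb3, listed at 0 in every library, and Hspa1l and Dnajb3, at mean FPKM of 0.574 and 0.598. Just inside the filter were Hspa2, Dnajc27 and Dnajc28, at mean FPKM of 1.33, 1.41 and 1.72.

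Heat shock proteins are chaperones: they hold unfolded proteins, help them fold and pass on those that fail for degradation. HSP70 binds and releases its clients through cycles of ATP hydrolysis, J-domain proteins bring it clients and start the hydrolysis, and nucleotide exchange factors such as HSP110, BAG3 and HSPBP1 reset it. HSP90 completes the maturation of kinases and receptors, small heat shock proteins keep damaged proteins from aggregating, and HSF1 drives many of these genes after heat or other stress by binding repeats of GAA and TTC in their promoters. In liver cells the same machinery serves the heavy synthesis and import load of mitochondria and secretion.

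The 12 RNA-seq libraries fall into 6 groups of 2: HPCs labelled Tnfrsf1α-/- with TNFα, Tnfrsf1β-/- with TNFα and wild type (WT) with TNFα, and the same genotypes untreated. These labels name the TNF receptor genes, Tnfrsf1a for TNFR1 and Tnfrsf1b for TNFR2, and "treated" below means tumour necrosis factor alpha for 1 hour. All cells are given as from day 13.5 of gestation. How the knockouts were made and how many animals or cultures stand behind a group is not given in the sources used here, so p-values reflect how much libraries of a group vary, and that variation may be technical. Levels are log2(FPKM + 1), where FPKM is a count of fragments scaled by transcript length and by library size, and differences between group means are on that scale with their standard error (SE). Each group has n = 2 throughout, and no depth is known because no counts were at hand. In bulk RNA, fewer cells that express a gene and less RNA per cell cannot be told apart.

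The genotype labels could be checked only in part. Tnfrsf1a stood at 5.65 and 5.95 in treated libraries labelled Tnfrsf1α-/-, against 5.65 and 5.63 in treated WT, and at 5.94 and 6.13 in untreated libraries with that label, against 5.45 and 5.15 in untreated WT. It was thus not lower under the label that names it, and all genotype names here are those of the labels. All 4 libraries labelled Tnfrsf1β-/- listed Tnfrsf1b at 0, but so did both untreated WT libraries. Treated WT libraries stood apart from the other 10 in their marker genes: all 14 hepatocyte markers were at a level of 1 or more there, with a median of 7.34 and 7.45 and a sum of 5542 and 5715 FPKM. In the other 10 libraries 1 to 3 of these markers reached that level, the median was at most 0.104 and the sum ran over 13.7 to 1247 FPKM, with Alb at 0 in 8 of them. The mesenchymal list (11 genes in the table) had a median of 0.282 and 0.847 in treated WT, with a sum of 2236 and 3093 FPKM and Pdgfrb at 0, against medians of 5.35 to 7.97 and sums of 2551 to 6763 FPKM in the other 10. Of 13 progenitor and bile duct markers 10 reached a level of 1 in treated WT and 2 or 3 elsewhere, and Epcam and Afp were at 0 in the other 10 libraries. The sum of this list was 41360 and 54905 FPKM in treated WT, 12010 to 35986 in the treated libraries with a knockout label and untreated WT, and 372.7 to 500.1 in untreated libraries with a knockout label, so a few of its genes were abundant in most libraries. The cells are called HPCs by their label. Endothelial markers summed to at most 4.5 FPKM with Kdr at 0 in every library, and macrophage markers to at most 49.8 FPKM with Adgre1 at 0. The part of these markers in any result below that rests on treated WT was not tested. The treated libraries labelled Tnfrsf1α-/- were the least alike: 15 of 61 members (24.6%) differed between them by over 1, against 33.5% of all genes tested, and at most 2 members did so in any other group.

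RefSeq promoters (build GRCr8, 250 bases before to 50 after the start) were at hand for 46 of the 60 symbols. The letters searched, on both strands, were the HSF1 units GAA and TTC set 2 bases apart, as GAANNTTC or TTCNNGAA, and runs of 3 such units, GAANNTTCNNGAA or TTCNNGAANNTTC, which contain the shorter form. The shorter form was found in 16 of the 46 member windows (34.8%), against 15.9% of 33469 windows in the table. The run of 3 units was found in 5 members (10.9%), Dnaja1, Hspa8, Hspd1, Hspe1 and Hsph1, against 0.798% of all windows. Shown are the windows that carry the 3-unit run (Hspd1 shares its run with Hspe1) and those of Hspb1 and Dnajb1, which hold the shorter form and whose levels differed between groups. Capitals mark the 3-unit run where a window holds one, and otherwise the shorter form; Dnaja1 and Hsph1 each hold 1 further short match, left in lower case. Everything is written 5′ to 3′ on the gene's strand.
Hspe1: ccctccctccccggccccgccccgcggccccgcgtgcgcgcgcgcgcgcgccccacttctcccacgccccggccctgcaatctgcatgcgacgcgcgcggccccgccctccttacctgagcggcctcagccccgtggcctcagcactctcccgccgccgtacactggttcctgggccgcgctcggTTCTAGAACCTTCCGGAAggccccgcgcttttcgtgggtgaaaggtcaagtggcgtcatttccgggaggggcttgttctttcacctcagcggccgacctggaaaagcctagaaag
Hsph1: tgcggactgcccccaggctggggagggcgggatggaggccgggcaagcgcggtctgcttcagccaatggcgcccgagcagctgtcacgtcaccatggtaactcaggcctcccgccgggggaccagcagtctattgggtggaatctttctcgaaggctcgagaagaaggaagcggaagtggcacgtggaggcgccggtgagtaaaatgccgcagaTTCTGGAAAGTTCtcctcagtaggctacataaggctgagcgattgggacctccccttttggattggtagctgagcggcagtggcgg
Hspa8: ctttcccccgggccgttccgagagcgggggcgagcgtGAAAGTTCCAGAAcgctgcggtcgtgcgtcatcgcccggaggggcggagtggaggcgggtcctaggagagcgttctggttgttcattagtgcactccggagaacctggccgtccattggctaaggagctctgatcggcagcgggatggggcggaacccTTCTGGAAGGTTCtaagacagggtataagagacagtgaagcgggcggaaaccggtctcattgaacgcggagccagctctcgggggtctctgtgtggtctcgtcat
Dnaja1: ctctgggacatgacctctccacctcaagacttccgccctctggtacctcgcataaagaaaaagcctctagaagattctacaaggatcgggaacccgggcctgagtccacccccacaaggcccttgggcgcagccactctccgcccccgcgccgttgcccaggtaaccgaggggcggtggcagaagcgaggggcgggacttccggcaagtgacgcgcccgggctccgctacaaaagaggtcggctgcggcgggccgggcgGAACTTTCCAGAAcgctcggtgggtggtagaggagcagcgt
Hspb1: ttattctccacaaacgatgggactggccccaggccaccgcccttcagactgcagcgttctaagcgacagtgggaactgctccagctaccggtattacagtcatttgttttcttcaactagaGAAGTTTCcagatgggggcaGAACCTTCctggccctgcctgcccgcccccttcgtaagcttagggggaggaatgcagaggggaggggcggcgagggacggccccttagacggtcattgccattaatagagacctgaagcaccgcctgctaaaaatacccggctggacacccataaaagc
Dnajb1: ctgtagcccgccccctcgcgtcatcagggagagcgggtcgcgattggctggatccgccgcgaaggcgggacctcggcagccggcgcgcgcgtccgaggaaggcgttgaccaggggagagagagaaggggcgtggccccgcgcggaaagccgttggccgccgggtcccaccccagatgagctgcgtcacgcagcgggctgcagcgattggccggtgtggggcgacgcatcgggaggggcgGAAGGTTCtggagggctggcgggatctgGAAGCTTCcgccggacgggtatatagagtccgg
These lie at chr9:64084077-64084376 on the plus strand, chr12:10427118-10427417 on the plus strand, chr8:50080264-50080563 on the plus strand, chr5:60638154-60638453 on the plus strand, chr12:26432252-26432551 on the minus strand and chr19:41431092-41431391 on the minus strand. Counting the start itself as 0, the run of Hspe1 lies 65 to 48 bases before it, that of Hsph1 36 to 24 before, the pair in Hspa8 213 to 201 and 55 to 43 before, and that of Dnaja1 9 to 21 after. Hspd1 and Hspe1 start in opposite directions and their windows share 211 bases, so 1 stretch of letters serves both: it lies 242 to 225 bases before the start of Hspd1. A match describes these letters and is no evidence of binding.

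Summed over the 61 lines, the members made up 3991 and 4024 FPKM in treated libraries labelled Tnfrsf1α-/-, 4156 and 3254 in treated Tnfrsf1β-/- and 8224 and 7480 in treated WT. Untreated, the sums were 3882 and 3629 under the Tnfrsf1α-/- label, 3512 and 3549 under the Tnfrsf1β-/- label and 4184 and 4536 in WT. Both treated WT libraries lay above all others, and their FPKM totals, 1958823 and 2085916, were also the highest of the 12. FPKM totals also differ between libraries: they were 447554 to 472935 in the 4 untreated libraries with a knockout label, against 1071530 to 2085916 in the other 8, and the highest level of any gene was 12.42 to 12.64, against at least 15.09 in each of the others. The part of this in results on those 4 libraries was not tested beyond the 2 scalings. Members took 0.767% to 0.828% of the total in untreated libraries labelled as knockouts and 0.275% to 0.420% in the other 8. As a share of the total, treated WT did not stand out from untreated WT: 0.42% and 0.36% against 0.39% and 0.37%. Hsp90ab1, the constitutive cytosolic HSP90, Hspa8, the constitutive HSP70, and Hspe1, the mitochondrial co-chaperonin, together gave 43.1% to 66.9% of the members' sum.

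Members differed in how far they moved. The range over the 12 libraries had a median of 2.06 and was under 1 for 4 members: Dnajc9, a histone chaperone (0.790), Bag3 (0.860), Dnajc8, a spliceosome protein (0.962), and Hspa14, a ribosome-associated HSP70 (0.993). It was over 4 for 6 members: Dnajc6, Hspb1, Hspb8, Hspb2, Hsp90aa1 and Hspa12b. The single highest of the 12 libraries was a treated WT library for 20 members, and the single lowest was a treated Tnfrsf1β-/- library for 25. The same counts were not made over all genes, so these are no result about chaperones. The median TNFα difference of all genes was itself -0.66 under the Tnfrsf1β-/- label and 0.32 in WT.

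**Figure D1:**
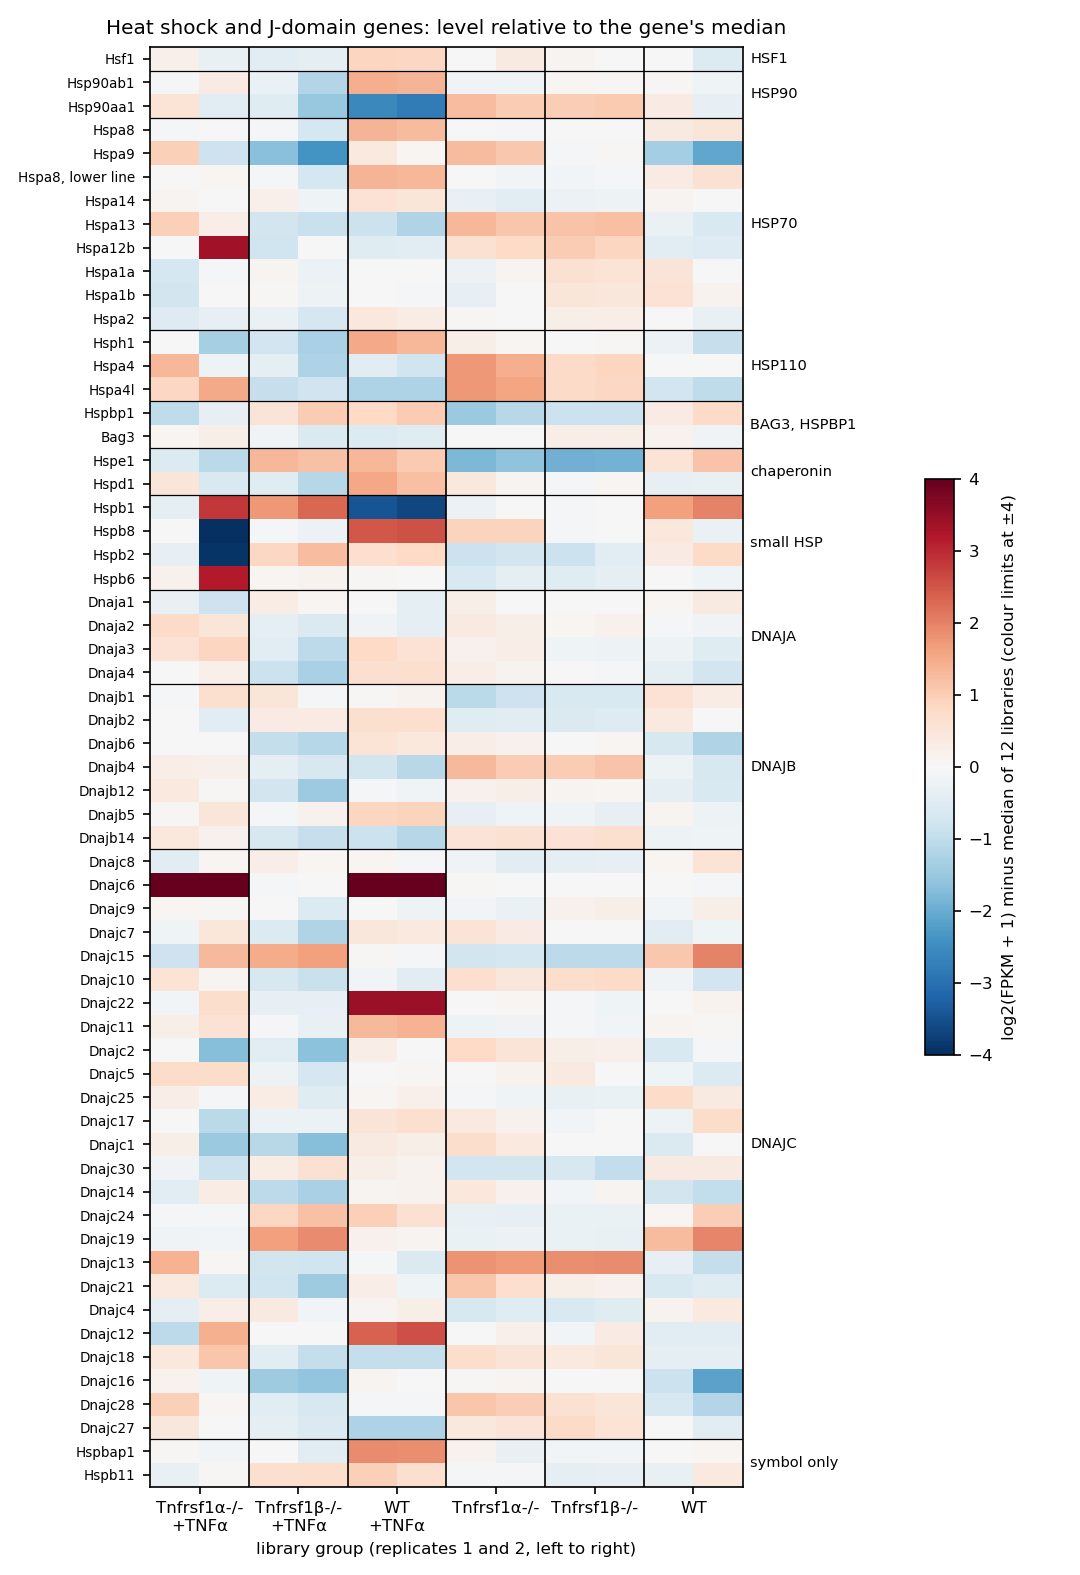
Level of each of the 61 members (rows, by family) in the 12 libraries (columns, 2 per group) as log2(FPKM + 1) minus the member's median, with colours limited at ±4. Treated WT shows the lowest Hspb1 and Hsp90aa1, and Dnajc6 is high in 4 libraries only.

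The first question the design asks is how libraries with TNFα differed from those without it, within each genotype. Below, that TNFα raised or lowered a gene states only such a difference. The wording names no cause, and the differences in markers and FPKM totals given above stand beside it. In cells labelled Tnfrsf1α-/-, 3 members were higher and 1 lower with TNFα than without (6.56% of members, against 17.3% of all 11860 genes tested, 9.81% higher and 7.5% lower). In cells labelled Tnfrsf1β-/-, 9 were higher and 26 lower (57.4%, against 60.5% of all genes, 17.6% higher and 42.9% lower), and in WT 21 were higher and 5 lower (42.6%, against 47.2% of all genes, 31.9% higher and 15.3% lower). A call is an adjusted p under 0.05, and the members were called about as often as all genes or less, so these counts are no result about chaperones. With 2 libraries a group, treated and untreated libraries did not overlap for 62.2% of all genes under the Tnfrsf1α-/- label, 87.5% under the Tnfrsf1β-/- label and 79.9% in WT, so a lack of overlap in a single member is common. The members' median difference was 0.02 under the Tnfrsf1α-/- label, -0.57 under the Tnfrsf1β-/- label and 0.36 in WT, against -0.02, -0.66 and 0.32 for all genes. The split depends on how libraries are scaled, since the median gene itself differed: with median-ratio scaling it was 18 higher and 11 lower under the Tnfrsf1β-/- label and 14 and 15 in WT, and after quantile normalization 3 and 16 under the Tnfrsf1α-/- label, 15 and 19 under Tnfrsf1β-/- and 10 and 16 in WT. Each comparison was also run under 18 to 20 other settings (another pseudocount, no filter, the 2 scalings, a replicate block, fits on fewer groups and each library left out). Calls that held in all settings were 1 under the Tnfrsf1α-/- label, 13 under Tnfrsf1β-/- and 12 in WT. Single libraries weigh on the counts. Under the Tnfrsf1α-/- label the 4 calls became 28 without treated replicate 1 and 1 without either untreated replicate, and 2 without either untreated Tnfrsf1β-/- replicate. Under Tnfrsf1β-/- the 35 became 21 without treated replicate 2, and 23 and 22 without untreated replicates 1 and 2. In WT the 26 became 16 without treated replicate 1.

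The second question is whether the response to TNFα differed from that of WT. For cells labelled Tnfrsf1α-/- the difference of responses was positive for 4 members and negative for 16 (32.8%, against 34.8% of all genes, 12.8% positive and 22% negative), and for those labelled Tnfrsf1β-/- it was positive for 7 and negative for 29 (59.0%, against 64.5%, 17.3% positive and 47.3% negative). With median-ratio scaling the splits were 11 and 9, and 19 and 15, and after quantile normalization 8 and 10, and 16 and 14, so the excess of negative differences was not stable. The calls held in all settings were 5 and 16. For the Tnfrsf1α-/- label the 20 calls became 6 and 10 without treated WT replicates 1 and 2, 8 and 10 without untreated Tnfrsf1α-/- replicates 1 and 2, 13 without either untreated Tnfrsf1β-/- replicate and 11 without untreated WT replicate 2.

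The third question is how each knockout label stood against WT. Untreated, 18 members were higher and 9 lower under the Tnfrsf1α-/- label (44.3%, against 53.7% of all genes, 36.7% higher and 17% lower), and 13 higher and 10 lower under the Tnfrsf1β-/- label (37.7%, against 54.4%, 36.9% higher and 17.5% lower). With TNFα, 11 were higher and 19 lower under Tnfrsf1α-/- (49.2%, against 45.2%, 22.7% higher and 22.4% lower), and 4 higher and 24 lower under Tnfrsf1β-/- (45.9%, against 51%, 14.7% higher and 36.3% lower). Median-ratio scaling gave 9 and 21, and 9 and 17, for the untreated pairs and 15 and 16 for treated Tnfrsf1β-/-. Quantile normalization gave 17 and 18, 16 and 17, and 12 and 15 for the same 3 comparisons. Treated Tnfrsf1α-/- had 12 and 20, and 13 and 20. Libraries of the groups did not overlap for 83% and 85.3% of all genes in the untreated Tnfrsf1α-/- and Tnfrsf1β-/- comparisons and for 70.5% and 84.5% in the treated ones. The comparisons share WT libraries and are given side by side only. For untreated Tnfrsf1α-/- the 27 calls became 41 without either treated Tnfrsf1α-/- replicate, 13 and 16 without untreated Tnfrsf1α-/- replicates 1 and 2, and 17 without untreated WT replicate 2. For treated Tnfrsf1α-/- the 30 became 19 without treated WT replicate 1, and for untreated Tnfrsf1β-/- the 23 became 14 and 13 without its replicates 1 and 2.

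**Figure D2:**
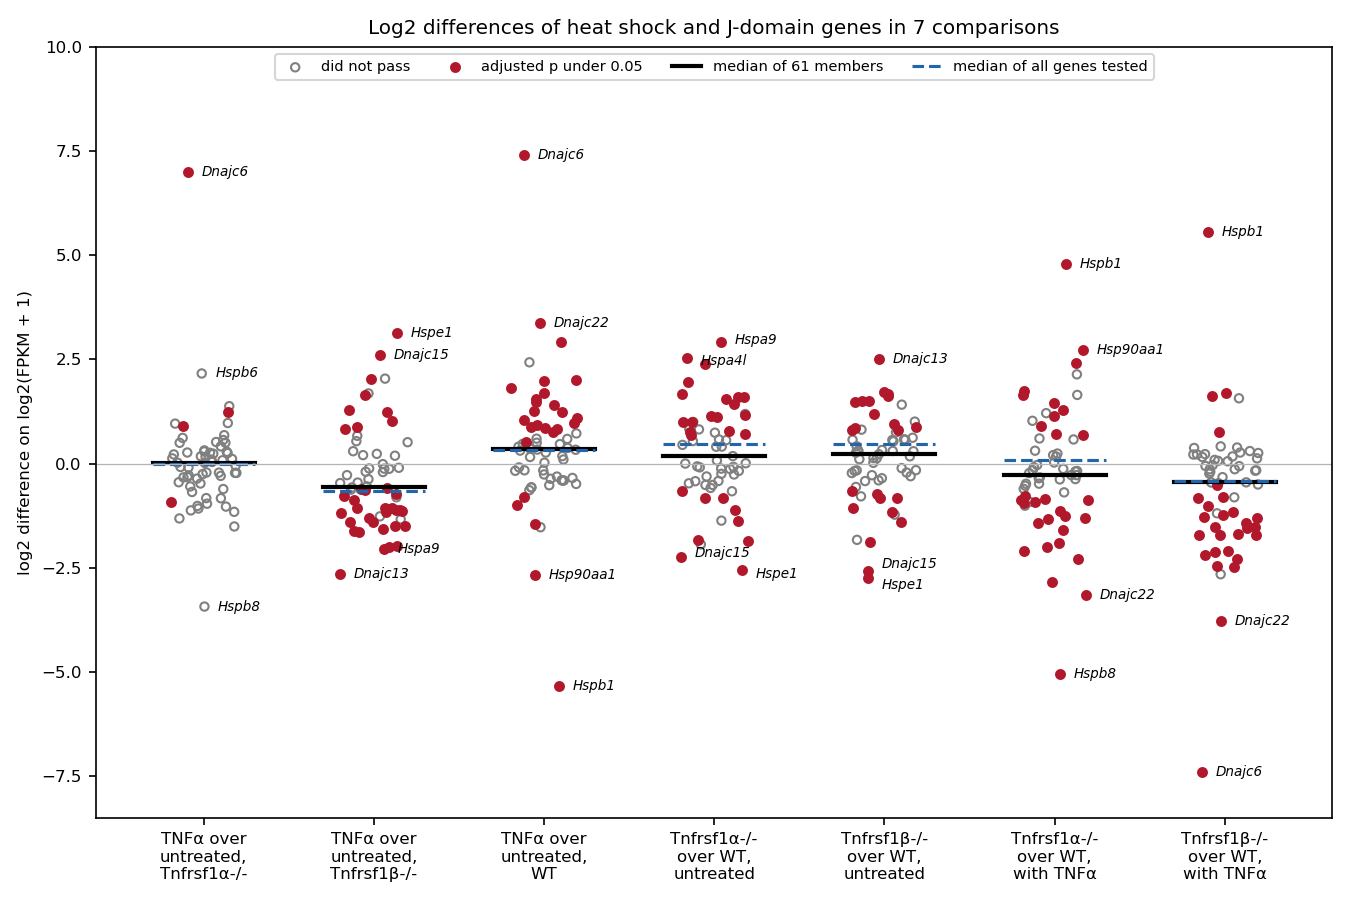
Log2 difference (vertical axis, on log2(FPKM + 1)) of each of the 61 members in 7 comparisons, filled where the adjusted p was under 0.05, with the members' median (black) and the median of all 11860 genes (dashed). Dnajc6 stands at 6.99 and 7.42 for TNFα under the Tnfrsf1α-/- label and in WT, and Hspb1 at -5.35 for TNFα in WT; both treated WT libraries list Hspa4l and Dnajc27 at 0, so their points there are no folds.

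Hsf1, the transcription factor that drives heat shock genes, was highest in treated WT. It stood at 4.64 and 4.12 in treated Tnfrsf1α-/-, 4.0 and 4.05 in treated Tnfrsf1β-/- and 5.28 and 5.24 in treated WT. Untreated, it stood at 4.42 and 4.79 in Tnfrsf1α-/-, 4.54 and 4.43 in Tnfrsf1β-/- and 4.43 and 3.89 in WT. The treated WT libraries lay above all others. TNFα raised Hsf1 in WT by 1.10 (SE 0.26, adjusted p = 0.00793), and treated Tnfrsf1β-/- was lower than treated WT, with a difference of -1.23 (SE 0.26, adjusted p = 0.00414). After quantile normalization the first was 0.46 (adjusted p = 0.145) and the second -0.49 (adjusted p = 0.124), and after median-ratio scaling the second was -0.54 (adjusted p = 0.0766).

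Bag3 ties HSP70 to small heat shock proteins and autophagy and is itself an HSF1 target. Its levels lay within 0.860 of each other, at 5.36 and 5.51 in treated Tnfrsf1α-/-, 5.14 and 4.69 in treated Tnfrsf1β-/- and 4.72 and 4.80 in treated WT, and at 5.25 and 5.30 in Tnfrsf1α-/-, 5.53 and 5.55 in Tnfrsf1β-/- and 5.42 and 5.13 in WT. Treated WT lay below untreated WT, but that difference did not pass (-0.52, SE 0.20, adjusted p = 0.0611). Bag3 was lower with TNFα under the Tnfrsf1β-/- label, with a difference of -0.62 (SE 0.20, adjusted p = 0.0249), which turned to 0.13 (adjusted p = 0.532) with median-ratio scaling and was -0.40 (adjusted p = 0.151) without treated replicate 2. Hspbp1, which strips nucleotide from HSP70, moved more. It stood at 4.81 and 5.50 in treated Tnfrsf1α-/-, 6.36 and 6.86 in treated Tnfrsf1β-/- and 6.65 and 6.84 in treated WT, and at 4.36 and 4.72 in Tnfrsf1α-/-, 4.96 and 4.97 in Tnfrsf1β-/- and 6.17 and 6.59 in WT. Untreated cells with either knockout label were lower than untreated WT without overlap, with a difference of -1.84 (SE 0.29, adjusted p = 0.00122) under Tnfrsf1α-/- and -1.41 (SE 0.29, adjusted p = 0.00396) under Tnfrsf1β-/-. TNFα raised it under the Tnfrsf1β-/- label by 1.64 (SE 0.29, adjusted p = 0.00169). These 3 calls held in all settings.

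The cytosolic HSP90 pair lay furthest apart in treated WT. Hsp90ab1, the constitutive form, stood at 9.88 and 10.23 in treated Tnfrsf1α-/-, 9.66 and 8.74 in treated Tnfrsf1β-/- and 11.36 and 11.28 in treated WT. Untreated it stood at 9.78 and 9.75 in Tnfrsf1α-/-, 9.99 and 9.96 in Tnfrsf1β-/- and 9.95 and 9.74 in WT. Only treated WT exceeded 11. Hsp90aa1, the stress-inducible form and a textbook HSF1 target, stood at 7.03 and 6.05 in treated Tnfrsf1α-/-, 6.02 and 4.99 in treated Tnfrsf1β-/- and 3.91 and 3.70 in treated WT, and untreated at 7.72 and 7.52 in Tnfrsf1α-/-, 7.46 and 7.53 in Tnfrsf1β-/- and 6.81 and 6.17 in WT. The treated WT libraries were the lowest of the 12.
TNFα lowered Hsp90aa1 in WT, with a difference of -2.69 (SE 0.41, adjusted p = 0.000879) and under the Tnfrsf1β-/- label, with a difference of -1.99 (SE 0.41, adjusted p = 0.00341). Both calls held in all settings, as did the higher Hsp90aa1 of treated Tnfrsf1α-/- over treated WT (2.73, SE 0.41, adjusted p = 0.000889), while the difference under the Tnfrsf1α-/- label did not pass (-1.08, SE 0.41, adjusted p = 0.0971). For Hsp90ab1 the difference in WT was 1.47 (SE 0.28, adjusted p = 0.00312), and 0.71 (adjusted p = 0.0739) after quantile normalization. Treated Tnfrsf1β-/- was lower in Hsp90ab1 than treated WT, with a difference of -2.12 (SE 0.28, adjusted p = 0.000373), a call that held throughout. The response to TNFα differed between the Tnfrsf1β-/- label and WT by -2.24 (SE 0.40, adjusted p = 0.00148) for Hsp90ab1, and no such difference passed for Hsp90aa1 (0.69, SE 0.58, adjusted p = 0.318).
Within a library the difference of the 2 genes is the same under any single scaling factor per library, though not under quantile normalization. Hsp90ab1 exceeded Hsp90aa1 by 7.45 and 7.58 in treated WT, against 3.14 and 3.57 in untreated WT. Under the knockout labels it exceeded it by 2.85 and 4.19 (Tnfrsf1α-/-) and 3.64 and 3.75 (Tnfrsf1β-/-) with TNFα, against 2.06 and 2.24, and 2.53 and 2.42, without. Treated WT did not overlap any other group.

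Among HSP70 genes the constitutive Hspa8 was the most abundant. It stood at 9.32 and 9.41 in treated Tnfrsf1α-/-, 9.36 and 8.69 in treated Tnfrsf1β-/- and 10.76 and 10.65 in treated WT, and untreated at 9.38 and 9.31 in Tnfrsf1α-/-, 9.40 and 9.40 in Tnfrsf1β-/- and 9.75 and 9.89 in WT. Treated WT lay above all others. A second line with this symbol lay 3.67 to 3.91 log2 units below it in every library. Treated Tnfrsf1α-/- was lower in Hspa8 than treated WT, with a difference of -1.34 (SE 0.22, adjusted p = 0.00148) and treated Tnfrsf1β-/- was lower, with a difference of -1.68 (SE 0.22, adjusted p = 0.000328), and both calls held in all settings. The rise with TNFα in WT (0.89, SE 0.22, adjusted p = 0.0109) was 0.40 (adjusted p = 0.187) with median-ratio scaling, 0.07 (adjusted p = 0.831) after quantile normalization and 0.83 (adjusted p = 0.0694) without treated WT replicate 1.
The heat-inducible pair Hspa1a and Hspa1b stayed low. Hspa1a stood at 1.57 and 2.20 in treated Tnfrsf1α-/-, 2.37 and 2.05 in treated Tnfrsf1β-/- and 2.26 and 2.28 in treated WT, and untreated at 2.04 and 2.40 in Tnfrsf1α-/-, 2.87 and 2.80 in Tnfrsf1β-/- and 2.80 and 2.26 in WT. All 12 libraries lay between 1.57 and 2.87, and none of the 9 comparisons passed for either gene in the main fit. After quantile normalization some passed for Hspa1b, as given in the closing section on processing. The 2 lines differed by at most 0.138, and as near-identical paralogues they share reads, so they are not separate evidence.
Hspa9, the mitochondrial HSP70 (mortalin), pulls proteins through the import channel. It stood at 8.02 and 6.26 in treated Tnfrsf1α-/-, 5.41 and 4.68 in treated Tnfrsf1β-/- and 7.48 and 7.17 in treated WT. In the untreated groups it stood at 8.36 and 8.17 in Tnfrsf1α-/-, 7.04 and 7.13 in Tnfrsf1β-/- and 5.71 and 5.0 in WT. Both knockout labels lay above WT when untreated, and treated Tnfrsf1β-/- and untreated WT were the lowest. Untreated Tnfrsf1α-/- was higher than WT by 2.91 (SE 0.52, adjusted p = 0.00221), in all settings. The untreated Tnfrsf1β-/- difference, 1.73 (SE 0.52, adjusted p = 0.0215), did not pass without either of its own replicates (adjusted p = 0.0767 and 0.089), without untreated WT replicate 2 (1.37, adjusted p = 0.139), with no filter (adjusted p = 0.0618) or with median-ratio scaling (1.20, adjusted p = 0.0542). Its rise with TNFα in WT (1.97, SE 0.52, adjusted p = 0.0142) did not pass after quantile normalization (1.23, adjusted p = 0.065), or without treated WT replicate 1 (1.82, adjusted p = 0.0942) or 2 (2.13, adjusted p = 0.0591) or untreated WT replicate 2 (1.62, adjusted p = 0.0935). The response to TNFα differed from WT by -4.01 (SE 0.74, adjusted p = 0.0017) under the Tnfrsf1β-/- label, in all settings.
Hspa13, an HSP70 of the microsomes, was higher in untreated cells of both knockout labels. It stood at 4.12 and 3.44 in treated Tnfrsf1α-/-, 2.45 and 2.28 in treated Tnfrsf1β-/- and 2.32 and 1.97 in treated WT, and untreated at 4.51 and 4.28 in Tnfrsf1α-/-, 4.29 and 4.37 in Tnfrsf1β-/- and 2.89 and 2.54 in WT. The untreated differences from WT were 1.67 (SE 0.28, adjusted p = 0.00151) under Tnfrsf1α-/- and 1.61 (SE 0.28, adjusted p = 0.00178) under Tnfrsf1β-/-, and TNFα lowered it under the Tnfrsf1β-/- label, with a difference of -1.97 (SE 0.28, adjusted p = 0.000648). All 3 held in every setting. Hspa12b, known from endothelial cells, stood at 5.07 in treated Tnfrsf1α-/- replicate 2 and at 0.91 to 2.73 in the other 11 libraries. The endothelial list (6 genes in the table) had no member at a level of 1 in that library and a sum of 0.9 FPKM. The testis-enriched Hspa2 ranged over 0.57 to 1.68 and Hspa14 over 4.27 to 5.26.

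The 3 HSP110 genes each had an order of their own. Hsph1 (HSP105), an HSF1 target with the 3-unit run shown above, stood at 5.83 and 4.53 in treated Tnfrsf1α-/-, 5.08 and 4.55 in treated Tnfrsf1β-/- and 7.37 and 7.19 in treated WT, and untreated at 6.08 and 5.93 in Tnfrsf1α-/-, 5.89 and 5.90 in Tnfrsf1β-/- and 5.61 and 4.94 in WT. Treated WT lay above all others. TNFα raised Hsph1 in WT by 2.0 (SE 0.41, adjusted p = 0.00416), treated Tnfrsf1β-/- was lower than treated WT, with a difference of -2.46 (SE 0.41, adjusted p = 0.00127), and the responses differed from WT by -2.83 (SE 0.58, adjusted p = 0.0065) under the Tnfrsf1α-/- label and -3.08 (SE 0.58, adjusted p = 0.00187) under the Tnfrsf1β-/- label. These 4 held in all settings. Treated Tnfrsf1α-/- was lower than treated WT, with a difference of -2.10 (SE 0.41, adjusted p = 0.00355), which did not pass with only those groups fitted (adjusted p = 0.0703).
Its relatives Hspa4 and Hspa4l were not high in treated WT. Hspa4l was listed at 0 in both treated WT libraries and stood at 2.09 and 2.76 in treated Tnfrsf1α-/- and 0.32 and 0.45 in treated Tnfrsf1β-/-. Untreated, it stood at 2.99 and 2.81 in Tnfrsf1α-/-, 2.0 and 2.07 in Tnfrsf1β-/- and 0.50 and 0.24 in WT. Both untreated knockout labels lay above WT, by 2.54 (SE 0.23, adjusted p = 0.000107) and 1.67 (SE 0.23, adjusted p = 0.000711), in all settings. Hspa4 stood at 6.76 and 5.23 in treated Tnfrsf1α-/-, 5.05 and 4.20 in treated Tnfrsf1β-/- and 4.96 and 4.61 in treated WT, and untreated at 7.15 and 6.87 in Tnfrsf1α-/-, 6.19 and 6.28 in Tnfrsf1β-/- and 5.43 and 5.42 in WT. Untreated Tnfrsf1α-/- was the highest group, above untreated WT by 1.59 (SE 0.46, adjusted p = 0.0187), which did not pass without either of its replicates (1.45 and 1.72, adjusted p = 0.0968 and 0.0564), without either untreated WT replicate (1.59 and 1.58, adjusted p = 0.0594 and 0.0794), with no filter (adjusted p = 0.0523) or with median-ratio scaling (1.04, adjusted p = 0.0665).

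**Figure D3:**
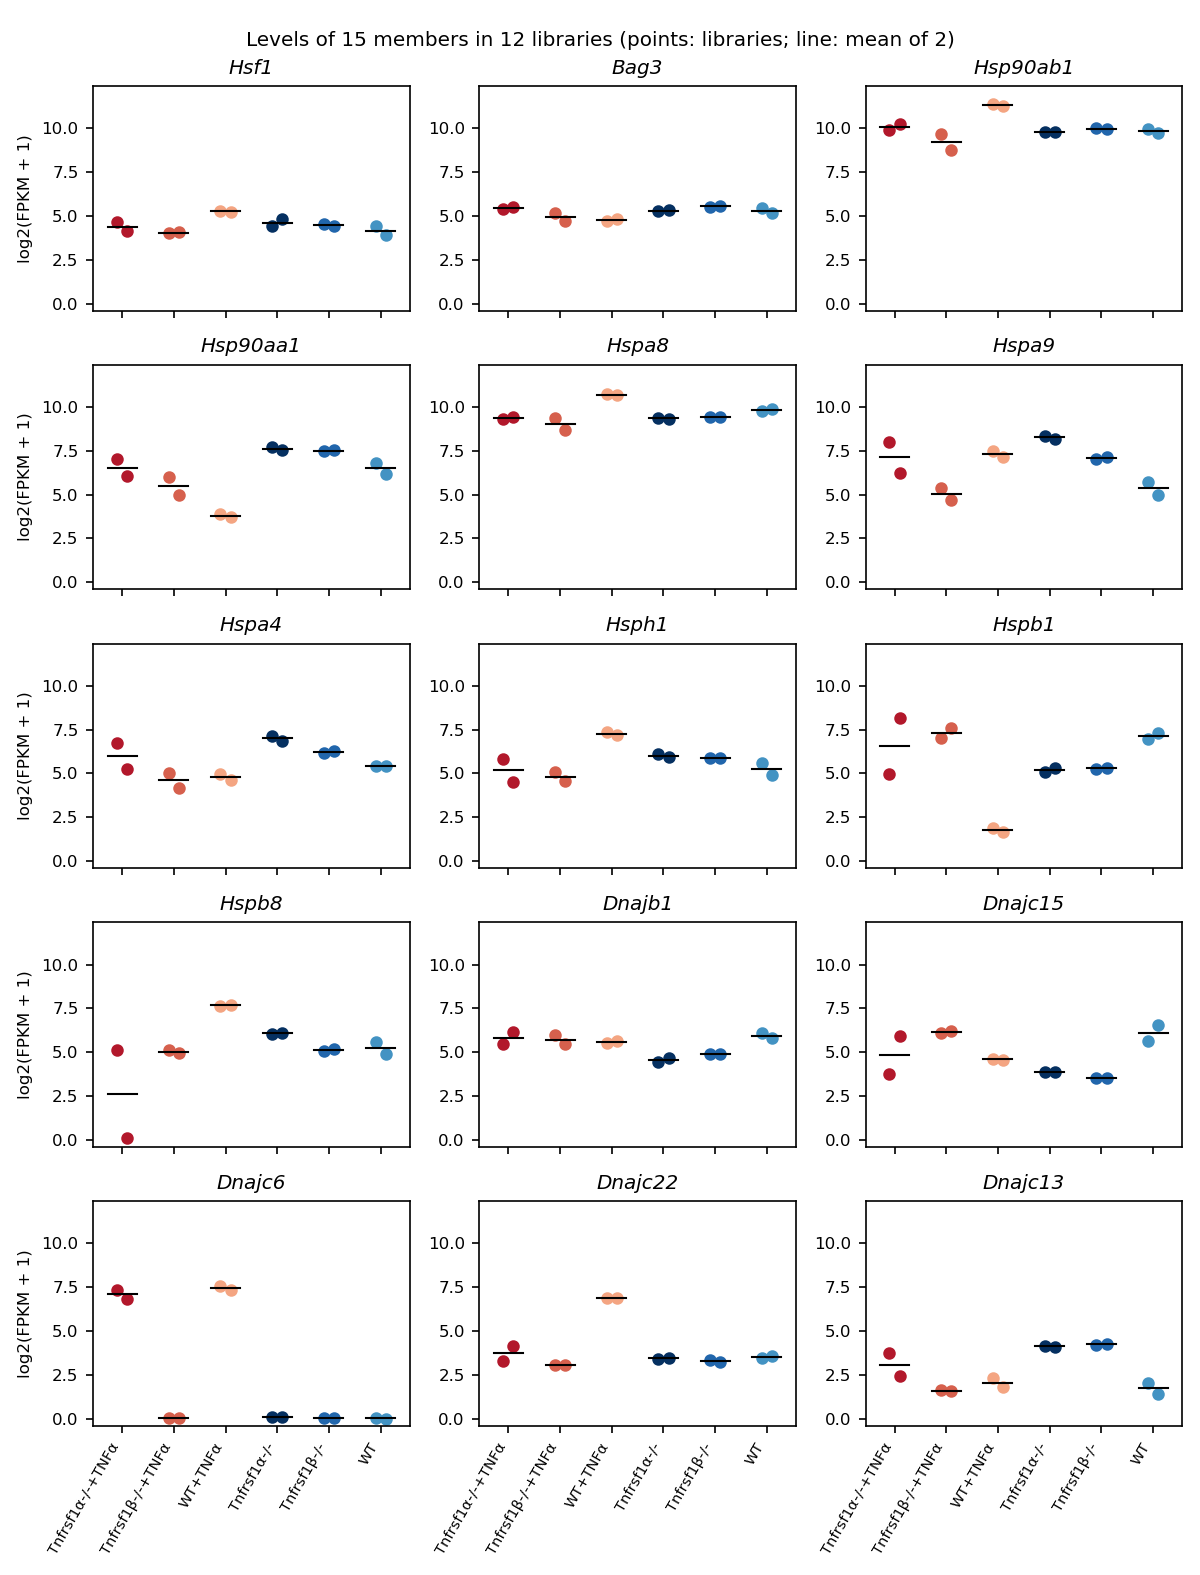
Levels, as log2(FPKM + 1), of 15 members in the 12 libraries (points, 2 per group) with group means (lines), treated groups left of untreated ones. Treated WT has the lowest Hspb1 (1.86 and 1.68) and Hsp90aa1 and the highest Dnajc22 (6.87 and 6.88), and Dnajc6 is at 6.83 to 7.56 in 4 libraries and at most 0.12 in 8.

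The mitochondrial chaperonin is a barrel, encoded by Hspd1, closed by a lid, encoded by Hspe1. The genes share a promoter, but their levels did not move in step. Hspe1 stood at 8.25 and 7.72 in treated Tnfrsf1α-/-, 10.13 and 9.98 in treated Tnfrsf1β-/- and 10.14 and 9.84 in treated WT, and untreated at 7.0 and 7.19 in Tnfrsf1α-/-, 6.90 and 6.92 in Tnfrsf1β-/- and 9.37 and 9.95 in WT. It was lowest, without overlap, in the untreated libraries with either knockout label, which are also those with the low FPKM totals. Hspd1 stood at 7.85 and 6.75 in treated Tnfrsf1α-/-, 6.88 and 6.21 in treated Tnfrsf1β-/- and 8.90 and 8.57 in treated WT, and untreated at 7.78 and 7.47 in Tnfrsf1α-/-, 7.29 and 7.42 in Tnfrsf1β-/- and 7.04 and 7.06 in WT. Here treated WT was the highest group.
Hspe1 was lower than in WT, with a difference of -2.56 (SE 0.25, adjusted p = 0.000174) in untreated Tnfrsf1α-/- and -2.74 (SE 0.25, adjusted p = 0.000123) in untreated Tnfrsf1β-/-. TNFα raised it under the Tnfrsf1β-/- label by 3.14 (SE 0.25, adjusted p = 5.58e-05), a response that differed from WT by 2.81 (SE 0.36, adjusted p = 0.000255), and treated Tnfrsf1α-/- was lower than treated WT, with a difference of -2.01 (SE 0.25, adjusted p = 0.000342). All 5 held in every setting. Under the Tnfrsf1α-/- label Hspe1 was higher with TNFα by 0.89 (SE 0.25, adjusted p = 0.0445). That difference was 0.91 (adjusted p = 0.0758) with median-ratio scaling and -0.45 (adjusted p = 0.142) after quantile normalization. Hspd1 passed for neither untreated knockout label, with a difference of 0.58 (SE 0.36, adjusted p = 0.208) under Tnfrsf1α-/- and 0.31 (SE 0.36, adjusted p = 0.511) under Tnfrsf1β-/-. It rose with TNFα in WT by 1.68 (SE 0.36, adjusted p = 0.00531), or 0.94 (adjusted p = 0.0623) after quantile normalization, and treated Tnfrsf1β-/- was lower than treated WT, with a difference of -2.19 (SE 0.36, adjusted p = 0.00124), in all settings.
Within a library Hspe1 exceeded Hspd1 by 0.40 and 0.97 in treated Tnfrsf1α-/-, 3.24 and 3.78 in treated Tnfrsf1β-/- and 1.24 and 1.27 in treated WT. Untreated, the difference was -0.78 and -0.28 under the Tnfrsf1α-/- label, -0.39 and -0.50 under the Tnfrsf1β-/- label and 2.33 and 2.88 in WT. The order of the 2 genes, per kilobase, was thus reversed in all 4 untreated libraries with a knockout label. Treated and untreated libraries did not overlap in any genotype: the difference was larger with TNFα under both knockout labels and smaller with it in WT.

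**Figure D4:**
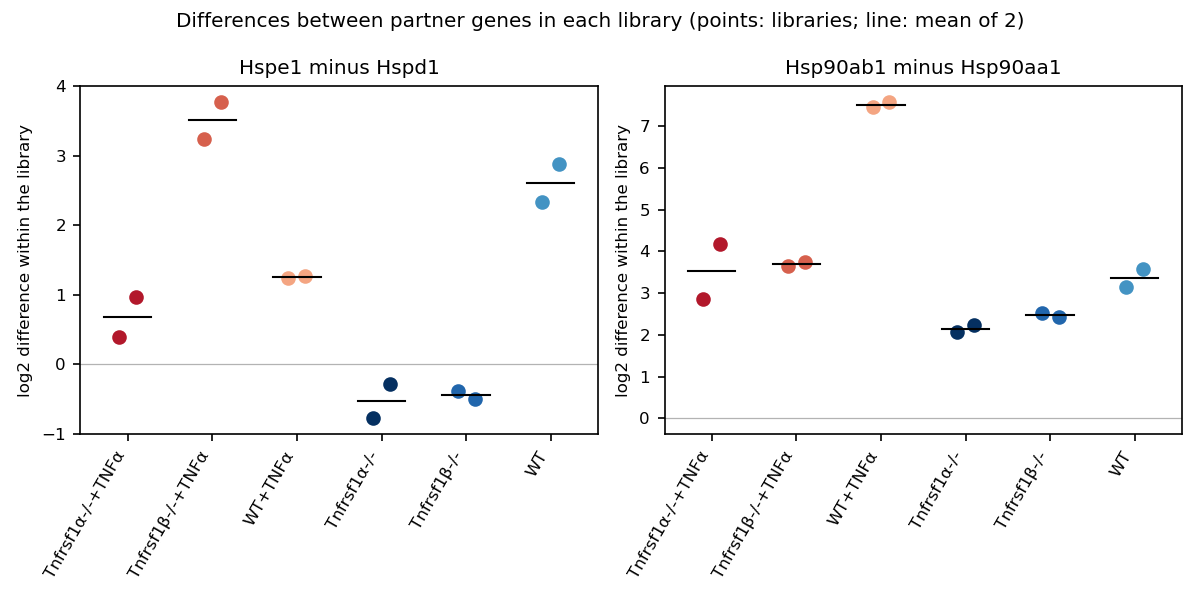
Log2 difference between Hspe1 and Hspd1 (left) and between Hsp90ab1 and Hsp90aa1 (right) within each of the 12 libraries (points) with group means (lines). Hspe1 lies below Hspd1 in the 4 untreated libraries with a knockout label only, and the HSP90 difference is 7.45 and 7.58 in treated WT and at most 4.19 elsewhere.

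Of the 4 small heat shock genes, 3 had a range over 4. Hspb1 (HSP27), a stress-inducible chaperone that also binds actin, stood at 4.97 and 8.15 in treated Tnfrsf1α-/-, 7.04 and 7.62 in treated Tnfrsf1β-/- and 1.86 and 1.68 in treated WT, and untreated at 5.07 and 5.29 in Tnfrsf1α-/-, 5.24 and 5.34 in Tnfrsf1β-/- and 6.95 and 7.30 in WT. The treated WT libraries were the lowest by over 3 log2 units. TNFα lowered Hspb1 in WT, with a difference of -5.35 (SE 0.81, adjusted p = 0.00082). Neither knockout label showed a difference that passed, with 1.38 (SE 0.81, adjusted p = 0.234) for Tnfrsf1α-/- and 2.04 (SE 0.81, adjusted p = 0.0548) for Tnfrsf1β-/-. Both treated Tnfrsf1β-/- libraries nonetheless lay above both untreated ones. The SE is shared by all groups, so it includes the gap between the 2 treated Tnfrsf1α-/- libraries. The responses differed from WT by 6.73 (SE 1.14, adjusted p = 0.00256) under the Tnfrsf1α-/- label and 7.39 (SE 1.14, adjusted p = 0.000699) under the Tnfrsf1β-/- label. These differences held in all settings. Treated Tnfrsf1β-/- exceeded treated WT by 5.56 (SE 0.81, adjusted p = 0.000591), in all settings, and treated Tnfrsf1α-/- by 4.79 (SE 0.81, adjusted p = 0.00167), which did not pass with only those groups fitted (adjusted p = 0.0713).
Hspb8, the partner of BAG3, stood at 5.15 and 0.12 in treated Tnfrsf1α-/-, 5.10 and 4.95 in treated Tnfrsf1β-/- and 7.66 and 7.70 in treated WT. Untreated, it stood at 6.07 and 6.07 in Tnfrsf1α-/-, 5.10 and 5.19 in Tnfrsf1β-/- and 5.60 and 4.90 in WT. Treated WT was highest, and the 2 treated Tnfrsf1α-/- libraries lay at 5.15 and 0.12, so the group mean describes neither. The difference between treated Tnfrsf1α-/- and treated WT (-5.04, SE 1.24, adjusted p = 0.0109) did not pass without treated WT replicate 1 (-5.06, adjusted p = 0.0638) or replicate 2 (-5.02, adjusted p = 0.0719) or with only those groups fitted (adjusted p = 0.143). Hspb2 and Hspb6, known from muscle, parted in the same 2 libraries: Hspb2 stood at 3.80 and 0.21 and Hspb6 at 3.57 and 6.58. In the other 10 libraries Hspb2 ran from 3.26 to 5.36 and Hspb6 from 2.79 to 3.55. Replicate 2 thus had the lowest Hspb8 and Hspb2 and the highest Hspb1, Hspb6 and Hspa12b of all 12 libraries.

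DNAJA proteins are the general J-domain partners of HSP70. Dnaja1, whose window holds the 3-unit run, stood at 6.96 and 6.44 in treated Tnfrsf1α-/-, 7.56 and 7.34 in treated Tnfrsf1β-/- and 7.26 and 6.89 in treated WT, and untreated at 7.49 and 7.28 in Tnfrsf1α-/-, 7.25 and 7.24 in Tnfrsf1β-/- and 7.34 and 7.61 in WT. It passed in none of the 9 comparisons in the main fit, but in some after quantile normalization, as given in the closing section on processing. Dnaja2 ranged over 5.53 to 6.86. Dnaja4 stood at 3.64 and 3.86 in treated Tnfrsf1α-/-, 2.78 and 2.34 in treated Tnfrsf1β-/- and 4.28 and 4.29 in treated WT, and untreated at 3.89 and 3.77 in Tnfrsf1α-/-, 3.64 and 3.60 in Tnfrsf1β-/- and 3.24 and 2.86 in WT. TNFα raised it in WT by 1.23 (SE 0.23, adjusted p = 0.00264), treated Tnfrsf1β-/- was lower than treated WT, with a difference of -1.72 (SE 0.23, adjusted p = 0.00036), and the response differed from WT by -2.29 (SE 0.32, adjusted p = 0.000456) under the Tnfrsf1β-/- label, in all settings. Dnaja3, the mitochondrial DNAJA, was lower in treated Tnfrsf1β-/- (4.28 and 3.68) than in treated WT (5.52 and 5.30), with a difference of -1.43 (SE 0.24, adjusted p = 0.00131), in all settings.

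Among DNAJB genes, Dnajb1, the classical heat-inducible J-domain protein, was lower in untreated cells with a knockout label. It stood at 5.44 and 6.13 in treated Tnfrsf1α-/-, 5.97 and 5.45 in treated Tnfrsf1β-/- and 5.54 and 5.63 in treated WT, and untreated at 4.43 and 4.65 in Tnfrsf1α-/-, 4.87 and 4.88 in Tnfrsf1β-/- and 6.07 and 5.79 in WT. Untreated Tnfrsf1α-/- was lower than WT, with a difference of -1.39 (SE 0.27, adjusted p = 0.00315), in all settings. Untreated Tnfrsf1β-/- was lower, with a difference of -1.06 (SE 0.27, adjusted p = 0.0106), which became -1.05 (adjusted p = 0.0548) and -1.06 (adjusted p = 0.0553) without its replicates 1 and 2. Treated libraries of all 3 genotypes overlapped. Under the Tnfrsf1β-/- label Dnajb1 was higher with TNFα by 0.84 (SE 0.27, adjusted p = 0.0256). That call was lost without treated replicate 1 (0.57) or untreated replicate 1 or 2 (0.83 and 0.84). TNFα raised Dnajb1 under the Tnfrsf1α-/- label by 1.25 (SE 0.27, adjusted p = 0.0161), but not without untreated replicate 1 (1.14, adjusted p = 0.134) or 2 (1.36, adjusted p = 0.0667) or with only those groups fitted (adjusted p = 0.228).
Dnajb4, a close relative of Dnajb1, was higher in those cells. It stood at 4.12 and 4.08 in treated Tnfrsf1α-/-, 3.50 and 3.23 in treated Tnfrsf1β-/- and 3.13 and 2.77 in treated WT, and untreated at 5.16 and 4.89 in Tnfrsf1α-/-, 4.89 and 5.0 in Tnfrsf1β-/- and 3.65 and 3.23 in WT. Untreated cells of both knockout labels lay above WT, by 1.59 (SE 0.23, adjusted p = 0.000912) and 1.51 (SE 0.23, adjusted p = 0.00116), and TNFα lowered it under the Tnfrsf1β-/- label, with a difference of -1.58 (SE 0.23, adjusted p = 0.000777), all in every setting. Under the Tnfrsf1α-/- label the TNFα difference of Dnajb4 was -0.925 (SE 0.23, adjusted p = 0.0293), which did not pass with only those groups fitted (adjusted p = 0.201). Dnajb6, which keeps proteins with long glutamine stretches from aggregating, stood at 4.81 and 4.83 in treated Tnfrsf1α-/-, 3.86 and 3.69 in treated Tnfrsf1β-/- and 5.37 and 5.23 in treated WT, and untreated at 5.07 and 4.99 in Tnfrsf1α-/-, 4.80 and 4.90 in Tnfrsf1β-/- and 4.16 and 3.62 in WT. TNFα raised it in WT by 1.41 (SE 0.21, adjusted p = 0.000811). The response differed from that by -1.63 (SE 0.30, adjusted p = 0.00398) under the Tnfrsf1α-/- label and -2.49 (SE 0.30, adjusted p = 0.00019) under the Tnfrsf1β-/- label. All 3 held in every setting. Of the other DNAJB genes, Dnajb2 rose with TNFα under the Tnfrsf1β-/- label by 0.87 (SE 0.21, adjusted p = 0.00693), in all settings, and Dnajb5, Dnajb12 and Dnajb14 ranged over 2.51 to 3.72, 2.84 to 4.69 and 0.94 to 2.72.

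The largest difference of any member was that of Dnajc6, auxilin, which with HSC70 strips clathrin from coated vesicles and is best known from neurons. Dnajc6 stood at 7.35 and 6.83 in treated Tnfrsf1α-/-, 0.03 and 0.04 in treated Tnfrsf1β-/- and 7.56 and 7.33 in treated WT, and untreated at 0.12 and 0.08 in Tnfrsf1α-/-, 0.05 and 0.04 in Tnfrsf1β-/- and 0.05 and 0 in WT. It was thus present in 4 libraries and at or near 0 in 8. TNFα raised it by 6.99 (SE 0.22, adjusted p = 5.23e-08) under the Tnfrsf1α-/- label and 7.42 (SE 0.22, adjusted p = 1.43e-08) in WT. Under the Tnfrsf1β-/- label it did not (-0.01, SE 0.22, adjusted p = 0.984), and the response differed from WT by -7.43 (SE 0.31, adjusted p = 2.03e-07). All of these calls held in every setting. Against libraries at or near 0 the size rests on the pseudocount of 1 and is no measured fold.
Tnfrsf1b followed a related pattern: it was listed at 0 in the 8 libraries without Dnajc6, except 0.03 in 1, stood at 2.58 and 2.43 in treated WT and at 0 and 4.09 in treated Tnfrsf1α-/-. It was at 0 in 1 library in which Dnajc6 stood at 7.35.

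Dnajc22 and Dnajc12 were highest in treated WT. Dnajc22, whose fly counterpart acts in clathrin-dependent uptake, stood at 3.31 and 4.13 in treated Tnfrsf1α-/-, 3.08 and 3.09 in treated Tnfrsf1β-/- and 6.87 and 6.88 in treated WT, and untreated at 3.39 and 3.49 in Tnfrsf1α-/-, 3.33 and 3.25 in Tnfrsf1β-/- and 3.45 and 3.56 in WT. The treated WT libraries exceeded all others by over 2.7 log2 units. TNFα raised it in WT by 3.37 (SE 0.26, adjusted p = 1.02e-05). Treated Tnfrsf1α-/- was lower than treated WT, with a difference of -3.15 (SE 0.26, adjusted p = 2.28e-05) and treated Tnfrsf1β-/- was lower, with a difference of -3.79 (SE 0.26, adjusted p = 4.36e-06), and all 3 held in every setting. Dnajc12, in human cells a co-chaperone of the aromatic amino acid hydroxylases, stood at 1.01 and 3.47 in treated Tnfrsf1α-/-, 2.04 and 2.06 in treated Tnfrsf1β-/- and 4.43 and 4.65 in treated WT, and untreated at 2.05 and 2.25 in Tnfrsf1α-/-, 1.96 and 2.40 in Tnfrsf1β-/- and 1.60 and 1.62 in WT. Its rise with TNFα in WT was 2.93 (SE 0.63, adjusted p = 0.00557), in all settings, and the treated Tnfrsf1α-/- libraries lay on either side of the untreated ones. Hepatocyte markers were high in the same 2 treated WT libraries, as given above.

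Dnajc19, Dnajc15 and Dnajc30, J-domain proteins of mitochondria, were lower in untreated cells with either knockout label than in untreated WT, and the mitochondrial Dnaja3 and Dnajc11 did not pass there (Dnaja3 0.56 and 0.17, Dnajc11 -0.25 and -0.16, under Tnfrsf1α-/- and Tnfrsf1β-/-). Dnajc19, part of the motor that pulls proteins through the inner membrane, stood at 2.65 and 2.67 in treated Tnfrsf1α-/-, 4.43 and 4.67 in treated Tnfrsf1β-/- and 2.96 and 2.91 in treated WT, and untreated at 2.51 and 2.55 in Tnfrsf1α-/-, 2.53 and 2.50 in Tnfrsf1β-/- and 4.04 and 4.73 in WT. Treated Tnfrsf1β-/- and untreated WT were high and the other 8 libraries low, without overlap. Untreated Tnfrsf1α-/- and Tnfrsf1β-/- were lower than WT, with a difference of -1.86 (SE 0.25, adjusted p = 0.000649) and -1.88 (SE 0.25, adjusted p = 0.00062). TNFα raised it under the Tnfrsf1β-/- label by 2.04 (SE 0.25, adjusted p = 0.00038) and lowered it in WT, with a difference of -1.45 (SE 0.25, adjusted p = 0.00163), in all settings.
Dnajc15, its inner-membrane paralogue and a brake on respiration in mouse, stood at 3.76 and 5.90 in treated Tnfrsf1α-/-, 6.09 and 6.23 in treated Tnfrsf1β-/- and 4.64 and 4.54 in treated WT, and untreated at 3.87 and 3.88 in Tnfrsf1α-/-, 3.54 and 3.55 in Tnfrsf1β-/- and 5.66 and 6.58 in WT. The same 4 libraries were high, joined by treated Tnfrsf1α-/- replicate 2. TNFα raised Dnajc15 under the Tnfrsf1β-/- label by 2.61 (SE 0.59, adjusted p = 0.00508), and the response differed from WT by 4.14 (SE 0.83, adjusted p = 0.00262), in all settings. Untreated Tnfrsf1β-/- was lower than WT, with a difference of -2.58 (SE 0.59, adjusted p = 0.00637), or -2.12 (adjusted p = 0.0548) without untreated WT replicate 2, and untreated Tnfrsf1α-/- was lower, with a difference of -2.25 (SE 0.59, adjusted p = 0.0116). The last became -1.79 (adjusted p = 0.0888) without that WT library and -2.24 and -2.26 (adjusted p = 0.0564 and 0.0525) without its own replicates.
Dnajc30, another mitochondrial member, stood at 3.68 and 2.97 in treated Tnfrsf1α-/-, 4.11 and 4.43 in treated Tnfrsf1β-/- and 4.06 and 3.98 in treated WT, and untreated at 3.07 and 3.09 in Tnfrsf1α-/-, 3.20 and 2.86 in Tnfrsf1β-/- and 4.18 and 4.18 in WT. Untreated Tnfrsf1β-/- lay below WT, but not past the threshold without its replicate 2 (-0.99, adjusted p = 0.0588). Dnajc30 rose with TNFα under the Tnfrsf1β-/- label by 1.24 (SE 0.27, adjusted p = 0.00403), in all settings. Dnajc24, needed for the diphthamide modification of a translation factor, did so by 1.28 (SE 0.30, adjusted p = 0.0063), likewise in all settings.

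Dnajc13 (RME-8), which sorts cargo on endosomes, was high in untreated cells with either knockout label. It stood at 3.76 and 2.42 in treated Tnfrsf1α-/-, 1.64 and 1.58 in treated Tnfrsf1β-/- and 2.33 and 1.80 in treated WT, and untreated at 4.17 and 4.07 in Tnfrsf1α-/-, 4.23 and 4.27 in Tnfrsf1β-/- and 2.04 and 1.42 in WT. Untreated libraries with either knockout label lay above untreated WT, by 2.39 (SE 0.42, adjusted p = 0.00201) and 2.52 (SE 0.42, adjusted p = 0.00159), and TNFα lowered it under the Tnfrsf1β-/- label, with a difference of -2.64 (SE 0.42, adjusted p = 0.00108). All 3 held in every setting. Dnajc28 was likewise higher in untreated Tnfrsf1α-/- by 1.96 (SE 0.29, adjusted p = 0.000955) and in untreated Tnfrsf1β-/- by 1.47 (SE 0.29, adjusted p = 0.00336), at levels of 0 to 2.30 over all libraries. Dnajc10 (ERdj5), a disulfide reductase of the endoplasmic reticulum, was lower with TNFα under the Tnfrsf1β-/- label, with a difference of -1.51 (SE 0.26, adjusted p = 0.00157), in all settings. Dnajc11, a protein of the mitochondrial membrane contact sites, rose with TNFα in WT by 1.27 (SE 0.19, adjusted p = 0.000722), in all settings. Dnajc27 was listed at 0 in both treated WT libraries and stood at 0.66 to 2.0 in the other 10. The remaining DNAJC genes ranged between 0.30 (Dnajc16) and 6.89 (Dnajc8). Of these, Dnajc5, the cysteine string protein of secretory vesicles, ranged over 3.78 to 5.19 and Dnajc7 over 4.10 to 5.86. The tests named for Dnajb2, Dnajc10, Dnajc11, Dnajc30 and, under the Tnfrsf1β-/- label, Dnajc28 were chosen after their values were seen. Hspbap1 and Hspb11 matched the symbol pattern but are not small heat shock proteins; Hspbap1 was at 4.69 and 4.68 in treated WT and at 2.36 to 2.95 in the other 10 libraries.

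Genes that work with the members but fall outside the rule were counted in 4 lists, chosen with earlier results of these data known. The shares of all genes called, to read their counts against, were 9.81% higher and 7.5% lower for TNFα under Tnfrsf1α-/-, 17.6% and 42.9% under Tnfrsf1β-/- and 31.9% and 15.3% in WT. Against WT they were 36.7% and 17% for untreated Tnfrsf1α-/-, 36.9% and 17.5% for untreated Tnfrsf1β-/-, 22.7% and 22.4% for treated Tnfrsf1α-/- and 14.7% and 36.3% for treated Tnfrsf1β-/-. Of 25 other HSP70 and HSP90 co-chaperones (Hspbp1 is also a member), TNFα raised 3 and lowered 0 under the Tnfrsf1α-/- label, raised 7 and lowered 5 under Tnfrsf1β-/- and raised 9 and lowered 3 in WT. Against WT, 5 co-chaperones were higher and 8 lower in untreated Tnfrsf1α-/-, 3 and 7 in untreated Tnfrsf1β-/-, 2 and 12 in treated Tnfrsf1α-/- and 0 and 11 in treated Tnfrsf1β-/-. Their median TNFα difference was 0.18 under Tnfrsf1α-/-, -0.29 under Tnfrsf1β-/- and 0.38 in WT, against -0.02, -0.66 and 0.32 for all genes. Fkbp4, an immunophilin that docks on HSP90, stood at 6.49 and 6.40 in treated Tnfrsf1α-/-, 6.83 and 6.46 in treated Tnfrsf1β-/- and 8.33 and 8.41 in treated WT, and untreated at 5.61 and 5.68 in Tnfrsf1α-/-, 5.72 and 5.61 in Tnfrsf1β-/- and 6.78 and 6.76 in WT. Stip1, which hands clients from HSP70 to HSP90, stood at 7.48 and 7.37 in treated Tnfrsf1α-/-, 6.94 and 6.15 in treated Tnfrsf1β-/- and 8.69 and 8.76 in treated WT, and untreated at 6.97 and 6.86 in Tnfrsf1α-/-, 6.97 and 7.01 in Tnfrsf1β-/- and 7.11 and 6.72 in WT. Both were highest in treated WT, where TNFα raised Fkbp4 by 1.60 and Stip1 by 1.81 (adjusted p = 9.27e-05 and 0.00058).
The cytosolic chaperonin CCT and its feeder prefoldin (14 genes) fold actin and tubulin. Of them TNFα changed 0 under the Tnfrsf1α-/- label, raised 6 and lowered 1 under Tnfrsf1β-/- and raised 3 and lowered 1 in WT. In untreated cells 0 were higher and 6 lower under Tnfrsf1α-/-, and 0 higher and 10 lower under Tnfrsf1β-/-. With TNFα, 0 were higher and 7 lower under Tnfrsf1α-/-, and 2 higher and 5 lower under Tnfrsf1β-/-. The median of these genes was 0.24, 0.43 and 0.05 in the same 3 TNFα comparisons. Pfdn4, a prefoldin subunit, stood at 5.40 and 6.14 in treated Tnfrsf1α-/-, 7.78 and 8.40 in treated Tnfrsf1β-/- and 7.2 and 7.17 in treated WT, and untreated at 5.98 and 5.88 in Tnfrsf1α-/-, 5.12 and 5.01 in Tnfrsf1β-/- and 7.49 and 7.63 in WT. It was, like Hspe1, low in untreated cells with either knockout label, but Pfdn4 was about as low in treated Tnfrsf1α-/-.
Among 11 other HSF family genes and targets, TNFα raised 1 and lowered 0 under the Tnfrsf1α-/- label, raised 1 and lowered 3 under Tnfrsf1β-/-, and raised 4 and lowered 2 in WT. Against WT, 2 were higher and 1 lower in untreated Tnfrsf1α-/-, 3 and 1 in untreated Tnfrsf1β-/-, 2 and 2 in treated Tnfrsf1α-/- and 2 and 5 in treated Tnfrsf1β-/-. For this list the median TNFα difference was 0.35, -0.32 and 0.64 in that order. Serpinh1, the collagen chaperone HSP47, stood at 10.41 and 9.14 in treated Tnfrsf1α-/-, 10.04 and 9.55 in treated Tnfrsf1β-/- and 1.36 and 1.41 in treated WT, and untreated at 10.40 and 10.65 in Tnfrsf1α-/-, 10.68 and 10.62 in Tnfrsf1β-/- and 10.38 and 10.17 in WT. It was thus low in treated WT only, with a TNFα difference of -8.89 there (adjusted p = 1.11e-07), and the mesenchymal median was low there too, as given above. Cryab, the small heat shock protein alpha B-crystallin, stood at 8.07 and 7.24 in treated Tnfrsf1α-/-, 8.30 and 8.87 in treated Tnfrsf1β-/- and 6.14 and 6.09 in treated WT, and untreated at 6.58 and 6.68 in Tnfrsf1α-/-, 7.27 and 7.15 in Tnfrsf1β-/- and 8.25 and 8.48 in WT, also lowest in treated WT. Serpinh1 and Cryab are the 2 that fell in WT. Zfand2a, of the 4 that rose there, stood at 4.715 and 5.03 with TNFα and 2.56 and 1.92 without (2.64, adjusted p = 0.00148).
Among 13 chaperones of the endoplasmic reticulum, TNFα raised 4 and lowered 0 under the Tnfrsf1α-/- label, raised 3 and lowered 6 under Tnfrsf1β-/- and raised 4 and lowered 4 in WT. Against WT, 4 were higher and 4 lower in either untreated knockout label, 3 and 1 in treated Tnfrsf1α-/- and 1 and 5 in treated Tnfrsf1β-/-. Here the median TNFα difference was -0.03, -1.05 and -0.01 in that order. Hyou1, the HSP110 of that compartment, stood at 10.26 and 10.83 in treated Tnfrsf1α-/-, 5.55 and 4.84 in treated Tnfrsf1β-/- and 11.47 and 10.98 in treated WT, and untreated at 5.91 and 5.95 in Tnfrsf1α-/-, 6.5 and 6.51 in Tnfrsf1β-/- and 6.12 and 5.48 in WT. It was high in the 4 libraries that were high for Dnajc6. Hsp90b1, its HSP90, stood at 14.25 and 13.85 in treated Tnfrsf1α-/-, 12.56 and 12.01 in treated Tnfrsf1β-/- and 14.43 and 13.73 in treated WT, and untreated at 9.18 and 9.0 in Tnfrsf1α-/-, 9.14 and 9.20 in Tnfrsf1β-/- and 12.74 and 12.71 in WT, lowest in the 4 untreated libraries with a knockout label.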

How the data were processed

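RNA was extracted with Trizol and made into libraries with a TruSeq kit from 1 ug of RNA, per the labels' protocols. The deposited table holds 1 column per library of log2(FPKM + 1) values made by the authors; that scale was read from the values, which run from 0 upward. The sources used here name no aligner, build or annotation and hold no counts, so depth is unknown. Of 22730 lines, 346 were empty and 22384 had a symbol.

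Members are lines whose symbol fits the rule and whose mean FPKM is at least 1. They and all gene lists were chosen with earlier results of these data known. Differences were tested by limma (version 3.58.1, R 4.3.3; 12 libraries, 6 group means, empirical Bayes with trend, two-sided, Benjamini-Hochberg over 11860 lines) at an adjusted p of 0.05. A check on simulated data gave each gene the same spread in all groups. It therefore does not cover groups that vary unequally, as the treated Tnfrsf1α-/- libraries did here. Test values come from a fixed core of well-known members and, in each comparison, from the 5 highest and 5 lowest called differences without overlap between libraries. Those said to be chosen otherwise stand apart from these, and not every value in this choice is printed. Alternatives were a pseudocount of 0.1, no filter, median-ratio scaling, quantile normalization, a replicate block, only the groups compared, and each library left out. Leaving out both treated Tnfrsf1α-/- libraries was also tried, and leaving out the 4 untreated knockout-labelled libraries was chosen after seeing the data. Promoters are RefSeq's, build GRCr8, in which 60 of 61 member lines had their symbol. Protein sequences were not used here.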

Additional observations from a re-analysis of the deposited data

Results flagged for a closer look

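Each value here is a response to TNFα under a knockout label minus the response in WT, on the log2 scale, and each was picked out because limma's test of that difference passed. Under the Tnfrsf1α-/- label the difference was 6.73 for Hspb1, 2.49 for Dnajc15, 1.59 for Dnajb1 and 1.58 for Dnajc19. It was negative under that label for Hspb8 (-5.86), Hspa9 (-3.10), Dnajc22 (-3.08), Dnajc12 (-2.83) and Hsph1 (-2.83). Under the Tnfrsf1β-/- label the difference was 7.39 for Hspb1, 4.14 for Dnajc15, 3.50 for Dnajc19, 2.81 for Hspe1 and 1.41 for Dnajc30. It was negative for Dnajc6 (-7.43), Hspa9 (-4.01), Dnajc22 (-3.57), Hsph1 (-3.08) and Dnajc12 (-3.05). Both sets of differences use the same 4 WT libraries. For Hspb1 and Dnajc22 the TNFα difference passed in WT and under neither label. Under the Tnfrsf1β-/- label Hspb1 was 2.04 higher with TNFα, without overlap, but short of the threshold (limma, adjusted p = 0.0548). The treated WT libraries are those with high hepatocyte markers and a low mesenchymal median. The part of those markers in these results was not tested. Under the Tnfrsf1α-/- label, 5 of these did not pass in some of the 18 other settings: Dnajc12 in 15 (adjusted p up to 0.181), Hspb8 in 13 (up to 0.104), Dnajc15 in 12 (up to 0.149), Hspa9 in 2 (0.0626 without treated WT replicate 1 and 0.0501 without untreated WT replicate 2) and Dnajb1 in 2 (0.054 without treated WT replicate 1 and 0.0574 without untreated Tnfrsf1α-/- replicate 1). The Hspb8 value rests on treated Tnfrsf1α-/- libraries at 5.15 and 0.12. Under the Tnfrsf1β-/- label Dnajc12 did not pass in 4 of 19: -2.05 (adjusted p = 0.0838) with median-ratio scaling, -1.16 (adjusted p = 0.347) after quantile normalization, -2.94 (adjusted p = 0.0576) without treated WT replicate 2 and -2.83 (adjusted p = 0.0537) without untreated Tnfrsf1β-/- replicate 2. The other values passed in all settings. Groups of 2 libraries are too small for a check of single libraries against their group.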

How the results depend on the processing

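Over the named members (289 results per setting), a change of direction was counted only where the result passed in the main fit or in the alternative. Results that passed in neither may have changed sign uncounted. None was counted with a pseudocount of 0.1, no filter, a fit on only the groups compared, a replicate block or a library left out. With median-ratio scaling 12 turned: under the Tnfrsf1β-/- label the TNFα difference became 0.13 for Bag3, 0.17 for Dnaja2, 0.13 for Dnajc5 and 0.0055 for Hsp90ab1, the response difference from WT 1.13 for Bag3, 0.83 for Dnaja2, 0.0671 for Dnajb4, 0.22 for Dnajc5, 0.98 for Hspa14 and 0.0038 for Hspa8, and the difference from treated WT 0.52 for Dnaja2 and 0.18 for Hspa14. With quantile normalization 15 turned. The TNFα difference became -1.82 for Hsp90ab1, -1.98 for Hspa8 and -0.45 for Hspe1 under the Tnfrsf1α-/- label, and -1.02 for Dnaja1 and 0.12 for Hspa2 under Tnfrsf1β-/-. Untreated Tnfrsf1α-/- against WT became 1.03 for Dnaja1, 1.55 for Hsp90ab1, -0.70 for Hspa2 and 1.13 for Hspa8, and untreated Tnfrsf1β-/- against WT 1.02 for Dnaja1, -0.83 for Hspa1b and 1.32 for Hspa8. For Tnfrsf1β-/-, the response difference became 0.63 for Hspa14 and 1.31 for Hspa1b, and the difference from treated WT 0.12 for Hspa14. The cause was not tested.

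Counts of members called moved by over 1.5 times in several other settings. With a library left out they did so in 7 fits for the response difference under Tnfrsf1α-/-. They did so in 5 fits each for TNFα under that label and for its untreated comparison with WT, and in at most 3 for any other comparison. With only the groups compared, the response difference under Tnfrsf1α-/- gave 12 calls, TNFα under that label 1 and treated Tnfrsf1α-/- against WT 9 (3 higher and 6 lower), where fewer libraries estimate the spread. Quantile normalization gave 19 for TNFα under the Tnfrsf1α-/- label, and leaving out both treated libraries of that label gave 41 for untreated Tnfrsf1α-/- against WT. With 1 library left out the counts ran from 1 to 28 and 21 to 46 for TNFα under the Tnfrsf1α-/- and Tnfrsf1β-/- labels, 16 to 35 in WT, 6 to 30 and 29 to 44 for the response differences, 13 to 41 and 13 to 34 for the untreated pairs and 19 to 36 and 20 to 34 for the treated pairs. A group left with 1 library was assumed to vary like the others.

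A fit with the replicate number as a block gave 6, 37 and 27 calls for TNFα under Tnfrsf1α-/-, Tnfrsf1β-/- and in WT, 21 and 36 for the response differences, 27 and 23 for the untreated pairs and 33 and 29 for the treated pairs. The labels do not say that equal replicate numbers share a culture, animal or day, so the main fit has no block. Same-numbered libraries deviated from their group means with correlations of -0.169 to 0.244 (median 0.149) over 15 pairs of groups, 9 of them over 0.1. These values do not settle whether the numbers pair the libraries. With 2 libraries a group and no counts, the precision of low members such as Hspa2, Dnajc27 and Dnajc28 is unknown.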
